A study of Mus musculus with 6 samples.

Results

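The contractile genes of myofibroblasts were examined in primary mouse renal fibroblasts cultured with or without Th17 cells. The set held 10 genes, chosen by name, and all 10 were among the 34745 genes of the deposited table. They encode smooth muscle actins (Acta2 and Actg2), smooth muscle myosin (Myh11 and Myl9), proteins that bind and steady actin filaments (Tagln, Cnn1, Cald1, Tpm1 and Tpm2) and a protein that starts new filaments (Lmod1). The fibroblasts were wild type (WT) and had been grown out of digested mouse kidney. In the lone group (3 libraries) they received no treatment, and in the cocultured group (3 libraries) they shared medium for 24 h with Th17 cells, the helper T cells that make interleukin-17, held in a porous insert above them. The Th17 cells had been induced from CD4+ T cells with IL-1β, IL-6, IL-23 and an antibody against IFN-γ, and only the fibroblasts were collected. The study's animals were Balb/c mice, but its methods do not tie the fibroblast donors to them, nor say whether replicate libraries stem from different cultures or mice, so p-values measure only the spread between these samples, which may be technical. Whether the lone wells held an empty insert or the same medium additions was not stated either.

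A fibroblast that is activated by injury, by tension or by transforming growth factor beta builds bundles of actin and myosin like those of smooth muscle, and is then called a myofibroblast. Its defining transcript is Acta2, which encodes alpha smooth muscle actin. Most genes of this kind are switched on by serum response factor (SRF), which binds a short DNA element called the CArG box together with the coactivators MRTF-A, MRTF-B or myocardin. In the kidney, cells with this programme line the scarred interstitium, and the same proteins are made by vascular smooth muscle, pericytes and mesangial cells.

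The promoters of members that fell and of members that did not are shown to let their CArG boxes be compared. RefSeq windows of the 250 bases before the start site (build GRCm38.p6) were matched by symbol for 7 members, in 8 windows. These start sites differ from the gene bounds of the deposited table given below, so distances hold for the RefSeq start only. By those bounds the windows of Tpm1, Myl9 and Lmod1 reach into the gene, and that of Acta2 stops short of it. Capitals mark CArG boxes with at most 1 G or C in the A and T core, and CATTCC on either strand, the core of the element bound by TEAD factors. The 4 windows are printed 5′ to 3′ on the strand of the gene.
Acta2 (chr19:34255374-34255623, minus strand): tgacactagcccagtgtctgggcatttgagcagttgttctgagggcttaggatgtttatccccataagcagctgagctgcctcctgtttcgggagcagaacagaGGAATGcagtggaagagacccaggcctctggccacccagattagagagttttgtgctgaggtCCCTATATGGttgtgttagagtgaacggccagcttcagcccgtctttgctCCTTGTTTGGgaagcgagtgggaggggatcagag
Tpm1 (chr9:67049214-67049463, minus strand): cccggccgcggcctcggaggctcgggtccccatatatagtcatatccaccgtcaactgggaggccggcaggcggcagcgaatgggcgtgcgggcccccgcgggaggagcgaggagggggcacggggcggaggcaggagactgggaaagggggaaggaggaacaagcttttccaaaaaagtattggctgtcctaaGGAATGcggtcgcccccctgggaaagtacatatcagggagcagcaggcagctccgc
Myl9 (chr2:156775214-156775463, plus strand): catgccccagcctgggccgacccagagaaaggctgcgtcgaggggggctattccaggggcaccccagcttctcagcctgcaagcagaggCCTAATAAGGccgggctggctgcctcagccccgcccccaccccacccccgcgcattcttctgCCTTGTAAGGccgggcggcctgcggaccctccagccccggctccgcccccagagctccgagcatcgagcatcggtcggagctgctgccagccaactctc
Lmod1 (chr1:135324563-135324812, plus strand): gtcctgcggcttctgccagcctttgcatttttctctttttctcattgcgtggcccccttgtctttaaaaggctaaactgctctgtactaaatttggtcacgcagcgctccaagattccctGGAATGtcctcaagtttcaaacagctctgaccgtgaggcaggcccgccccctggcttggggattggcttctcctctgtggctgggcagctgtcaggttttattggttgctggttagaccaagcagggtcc

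Acta2 held 2 CArG boxes, CCCTATATGG at 84 to 75 and CCTTGTTTGG at 34 to 25 bases before the start, each with 1 base in the core that is G or C. Myl9 held an exact CArG box, CCTAATAAGG at 161 to 152 bases, and a second with 1 such base, CCTTGTAAGG at 99 to 90 bases. No window of the other 5 matched members held a CArG box of either kind. An exact box occurred in 1.47% of all 32851 windows and the looser form, which includes the exact one, in 8.59%. CATTCC, which does not overlap the CArG boxes here, was found in Acta2, Tpm1, Lmod1 and Cald1, and in 12.6% of all windows. These matches are letters in a window and show neither binding nor its absence.

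Library totals ran from 12050529 to 13209581 counts. Libraries of a group differed beyond counting noise, with a chi-square statistic per gene of at least 6.38. Levels are given as CPM, counts scaled to a common library total with TMM factors, which compares libraries for 1 gene. Levels of different genes are compared in FPKM, which is divided by gene length. On that scale the lone fibroblasts were led by Acta2 (2901 ± 147 FPKM, SD, n = 3) and Tagln (1755 ± 20.2), followed by Cnn1 (239 ± 6.50), Actg2 (196 ± 24.0), Myl9 (164 ± 27.8), Tpm2 (96.2 ± 3.38), Tpm1 (79.6 ± 2.63), Cald1 (64.6 ± 2.48), Myh11 (54.7 ± 0.575) and Lmod1 (27.1 ± 1.37). The ranges of neighbours in this order overlapped only for Actg2 and Myl9. The gene lengths used are not given in the sources used here, and the order depends on them. By CPM, which is not divided by length, Acta2 and Tagln also led, but Cald1 (1568) and Tpm1 (1345) stood above Cnn1 (578) in lone fibroblasts. Lone fibroblasts therefore carried the full set without Th17 cells, and the 10 genes made up between 1.28% and 1.35% of all counts.

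To ask how this programme differed with Th17 cells, all genes with enough counts were tested together with edgeR's quasi-likelihood test and Benjamini-Hochberg adjustment. Coculture was accompanied by lower transcripts of 6 of the 10 contractile genes, led by Acta2, Tagln and Cnn1, and by no higher one (0 also at an unadjusted p below 0.05, with DESeq2 and with limma). Acta2 fell to 45.9% of its lone level, Tagln to 55.3%, Cnn1 to 63.4% and Tpm1 to 64.5%, whereas Myl9, Tpm2, Cald1 and Lmod1 did not pass an adjusted p of 0.05. All 10 passed the filter on low counts, and among all 13088 genes tested 37.1% were called in either direction, 20.0% lower and 17.1% higher. The median log2 fold change of the 10 was −0.38, beside 0.00 for all genes tested. With the study's further limit of a fold change above 2, Acta2 alone remained, where 7.78% of all genes passed in that direction. The contractile genes made up between 0.81% and 0.91% of all counts after coculture. Fewer cells of a type and less RNA per cell cannot be told apart in these bulk libraries. The values are of RNA only. The study also blotted alpha smooth muscle actin protein in fibroblasts alone and with Th17 cells, and described a fibrotic phenotype in coculture. RNA and protein were not compared here.

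**Figure D1:**
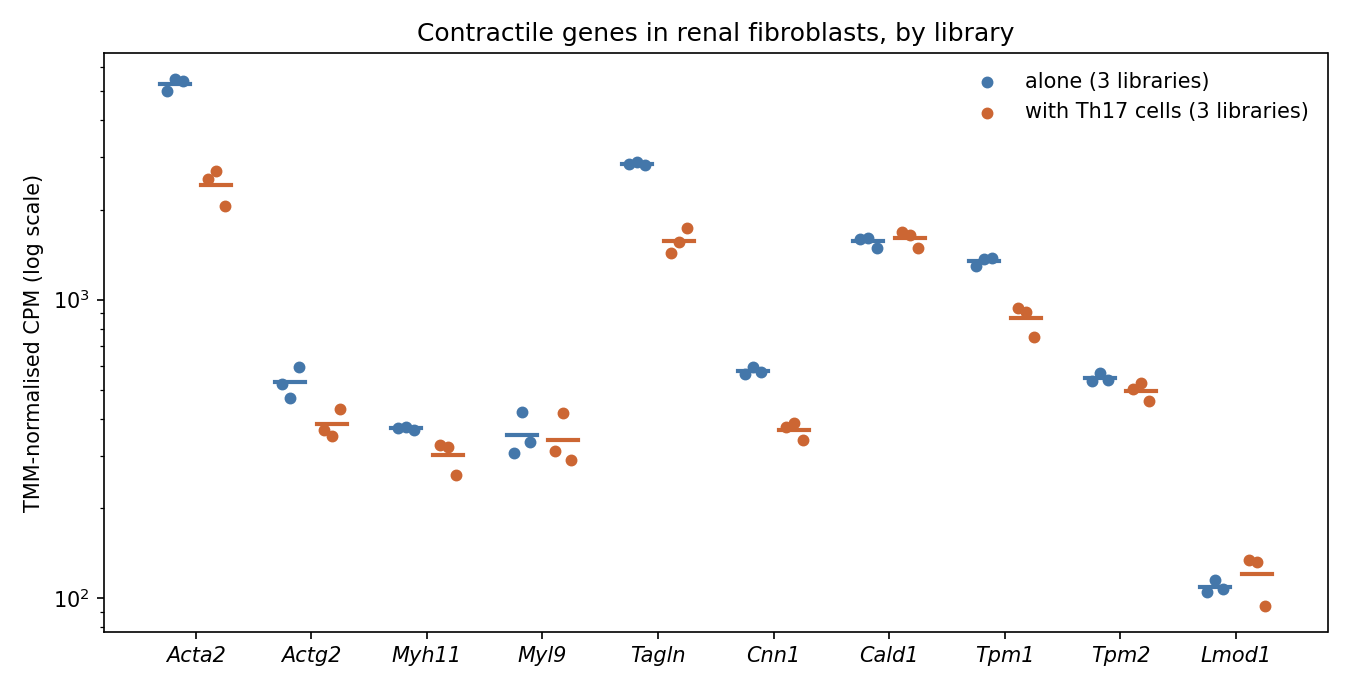
TMM-normalised CPM (log axis) of the 10 contractile genes in each library, with lone fibroblasts in blue and cocultured fibroblasts in orange, points for libraries and bars for group means. The points of the groups are apart for 7 genes, among them Acta2, Tagln, Cnn1 and Tpm1, and mix for Myl9, Cald1 and Lmod1.

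Acta2 (ENSMUSG00000035783, GRCm38 chromosome 19, 34241090 to 34255336, protein-coding) had 4987, 5459 and 5395 CPM in the lone libraries and 2526, 2687 and 2059 CPM in the cocultured ones. Every cocultured library lay below every lone one, and cocultured replicate 3 was the lowest. The log2 fold change was −1.12 (95% interval −1.34 to −0.91, SE 0.094, edgeR adjusted p = 1.87e-05), and 6.83% of genes tested had a lower value. The interval spanned a fold change of 2, and the estimate stayed beyond that size in all 14 alternative fits, from −1.20 to −1.02.

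Actg2 (ENSMUSG00000059430, chromosome 6, 83512905 to 83536265, protein-coding), the gamma smooth muscle actin best known from the gut, had 521, 469 and 595 CPM alone and 365, 351 and 432 CPM with Th17 cells. The groups did not overlap, but replicate 3 was the highest in each of them, so this gene did not follow Acta2 within the groups. It fell less than Acta2, by 0.47 on the log2 scale (95% interval −0.70 to −0.23, edgeR adjusted p = 0.00679), and the intervals of the actins did not overlap.

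Myh11 (ENSMUSG00000018830, chromosome 16, 14194527 to 14291408, protein-coding) encodes the heavy chain of smooth muscle myosin, the motor of the contractile bundle. Its levels were 371, 375 and 366 CPM alone and 327, 321 and 258 CPM after coculture. The lone libraries were tightly grouped and all lay above the cocultured ones, of which replicate 3 stood lowest. The log2 fold change of −0.30 (95% interval −0.49 to −0.10, edgeR adjusted p = 0.0270) was the weakest call of the set. The adjusted p was 0.0615, 0.0713 and 0.0547 without lone replicate 1, 2 or 3 and 0.0574 with library size as the only scaling, and without cocultured replicate 3 the log2 fold change was −0.19 (edgeR adjusted p = 0.0130).

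Myl9 (ENSMUSG00000067818, chromosome 2, 156775420 to 156781658, protein-coding) encodes the regulatory light chain whose phosphorylation turns smooth muscle myosin on. It had 306, 421 and 334 CPM alone and 311, 416 and 291 CPM with Th17 cells, so replicate 2 was highest in both groups and the groups overlapped. No difference was detected (log2 fold change −0.06, 95% interval −0.40 to 0.28, edgeR adjusted p = 0.792), and the interval leaves room for changes of either sign smaller than those of Acta2 or Tagln. The estimate turned positive without lone replicate 2 (0.09), without cocultured replicate 1 or 3 (0.0015 and 0.04) and with library size only (0.003).

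**Figure D2:**
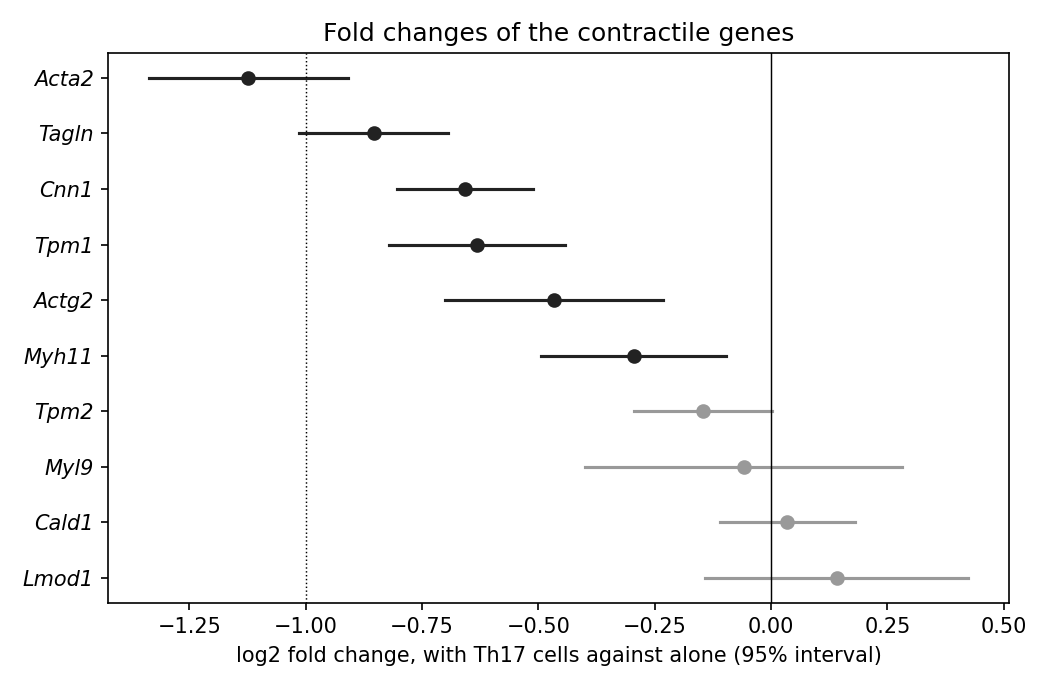
Log2 fold change of each contractile gene with Th17 cells against alone, with its 95% interval, black for an adjusted p below 0.05 and grey otherwise, and a dotted line at a fold change of 2. Values run from −1.12 for Acta2 to 0.14 for Lmod1, and the intervals of Tpm2, Myl9, Cald1 and Lmod1 cross 0.

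Tagln (ENSMUSG00000032085, chromosome 9, 45929628 to 45936058, protein-coding) encodes transgelin or SM22, an actin cross-linking protein that is an early marker of smooth muscle. It was measured at 2832, 2885 and 2819 CPM alone and at 1435, 1556 and 1732 CPM with Th17 cells. The lone libraries were nearly equal, and cocultured replicate 3, lowest for most of the set, was here the highest of its group. The log2 fold change was −0.85 (95% interval −1.01 to −0.69, SE 0.071, edgeR adjusted p = 1.71e-05). An antisense gene, Gm48529, covers 62.4% of the exonic bases of Tagln in GENCODE, and since the sources do not say whether fragments were counted by strand, those of the pair cannot be told apart.

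Cnn1 (ENSMUSG00000001349, chromosome 9, 22099281 to 22109630, protein-coding) encodes calponin, which brakes the myosin motor on smooth muscle actin. It had 565, 595 and 575 CPM alone and 375, 387 and 338 CPM with Th17 cells. The groups were well apart, and the log2 fold change was −0.66 (95% interval −0.80 to −0.51, SE 0.065, edgeR adjusted p = 5.37e-05).

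Caldesmon, from Cald1 (ENSMUSG00000029761, chromosome 6, 34598500 to 34775473, protein-coding), also restrains myosin on actin and is made in muscle and non-muscle forms that a count per gene does not separate. Its values of 1601, 1610 and 1494 CPM alone and 1689, 1645 and 1485 CPM after coculture overlapped. The log2 fold change of 0.03 had a narrow interval from −0.11 to 0.18 (edgeR adjusted p = 0.708), so a decrease of the size seen for Cnn1 lay outside it. Without lone replicate 3 or cocultured replicate 1 the estimate was −0.0016 and −0.0017.

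The tropomyosins lie along actin filaments and set which other proteins can bind. Tpm1 (ENSMUSG00000032366, chromosome 9, 67022590 to 67049406, protein-coding) had 1298, 1364 and 1373 CPM alone and 939, 912 and 751 CPM with Th17 cells. The cocultured libraries were all lower, with replicate 3 lowest, and the log2 fold change was −0.63 (95% interval −0.82 to −0.44, edgeR adjusted p = 0.000360). Tpm2 (ENSMUSG00000028464, chromosome 4, 43514711 to 43523765, protein-coding) had 536, 570 and 537 CPM alone and 502, 525 and 457 CPM with Th17 cells. Its groups did not overlap either, but the gap was small, and the log2 fold change of −0.15 did not pass (95% interval −0.30 to 0.00, edgeR adjusted p = 0.114). The intervals of the tropomyosins did not overlap. Like Cald1, both genes are spliced into muscle and non-muscle forms that the counts pool.

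Leiomodin, from Lmod1 (ENSMUSG00000048096, chromosome 1, 135324807 to 135368065, protein-coding), nucleates actin filaments in smooth muscle and was the lowest member per length. It had 105, 115 and 107 CPM alone and 134, 132 and 94.6 CPM with Th17 cells. Cocultured replicates 1 and 2 lay above every lone library and replicate 3 below them. The log2 fold change was 0.14 (95% interval −0.14 to 0.42, edgeR adjusted p = 0.414), and without cocultured replicate 3 it was 0.29 with an edgeR adjusted p of 0.00870. The statement that no member was higher therefore rests on that library.

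Across the set, CPM ranges did not overlap for 7 members, all lower with Th17 cells and Tpm2 among them, where 26.1% of all genes tested were separated in that direction. Cocultured replicate 3 had the lowest level of its group in 8 of the 10 genes (all but Tagln and Actg2), beside 39.0% of all genes tested. Lone replicate 1 was lowest of its group in 6, beside 35.2% of all genes tested. Lone replicate 2 was highest of its group in 8, for which the share over all genes was not computed. Transcripts similar to another gene were few outside Tagln. Of the 50-base stretches in annotated transcripts, 0.326% of those of Acta2 and 0.34% of those of Myh11 also occur in another gene, and none of those of Actg2, Cnn1, Myl9, Cald1, Tpm1, Tpm2 or Lmod1.

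Most of these proteins have relatives that every cell uses, so the make-up of each family was compared per length, as the share of a family's summed FPKM. Acta2 made up 74.5%, 76.4% and 74.9% of actin FPKM (Acta2, Actg2, Actb, Actg1, Acta1 and Actc1) in the lone libraries and 54.4%, 63.3% and 61.6% after coculture. The groups did not overlap, and the mean share fell by 15.5 percentage points (two-sided exact permutation test, p = 0.1, the smallest that 3 against 3 libraries allow). The cytoplasmic actins Actb and Actg1 did not pass the test (log2 fold changes 0.03 and 0.01, edgeR adjusted p = 0.929 and 0.990). They were uneven between libraries, with summed levels of 741, 750 and 772 FPKM alone and 1073, 751 and 573 FPKM with Th17 cells. Actb ran from 366 to 631 FPKM and Actg1 from 198 to 442 FPKM over the 6 libraries, and 37.4% of the 50-base stretches of Actg1 also occur in other genes, so the actin shares carry this uncertainty. The size of the shares also depends on the gene lengths used. Undivided by length, Acta2, Actb and Actg1 had mean levels of 5280, 2667 and 1989 CPM alone. With Th17 cells these levels were 2424, 2723 and 1997 CPM.

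Tagln, Cnn1 and Tpm1 also made up less of their families after coculture, by smaller margins, whereas Actg2 did not. Tagln went from 87.2% ± 0.552 of transgelin FPKM to 83.1% ± 0.471 (SD, n = 3 each), with its relative Tagln2 also lower (log2 fold change −0.38, edgeR adjusted p = 0.00160). Cnn1 went from 48.5% ± 0.781 to 39.7% ± 0.596 of calponin FPKM, and Tpm1 and Tpm2 together from 18.2% ± 0.426 to 16.1% ± 0.565 of tropomyosin FPKM. Tpm1 alone went from 8.24% ± 0.335 to 5.96% ± 0.352, so that the lower share of the pair was that of Tpm1. In these 3 families the groups did not overlap. Actg2 made up 5.10% ± 0.591 of actin FPKM alone and 6.55% ± 1.90 with Th17 cells, with overlapping groups. Tropomyosin FPKM was mostly Tpm4, a non-muscle form, at 761 to 805 FPKM alone and 703 to 783 FPKM with Th17 cells. This dominance depends on the gene lengths used. Undivided by length, Tpm4 had a mean of 1788 CPM and Tpm1 of 1345 CPM alone, and 1628 and 867 CPM with Th17 cells.

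The myosin families differed from this pattern. Myh11 made up 19.1% ± 0.237 of the myosin heavy chains (Myh11, Myh9, Myh10 and Myh14) alone and 18.5% ± 0.782 with Th17 cells, and the groups overlapped. Its non-muscle relative Myh10 had 237 ± 8.61 CPM alone and 145 ± 13.7 CPM with Th17 cells (SD over 3 libraries each) and was lower, at a log2 fold change of −0.71 (edgeR adjusted p = 0.000114). Among the regulatory light chains, Myl9 made up 52.8% ± 4.19 alone and 60.3% ± 5.59 with Th17 cells, with overlapping groups. Its relative Myl12a fell from 487 ± 17.0 to 302 ± 30.7 CPM (log2 fold change −0.69, edgeR adjusted p = 0.000139). GENCODE entries that also bear the name Myl12b, but have no row in the deposited table, overlap both relatives on the same strand. They cover 13.8% of the exonic bases of Myl12a and 26.7% of those of the Myl12b analysed here. How fragments from these stretches were assigned is not known.

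**Figure D3:**
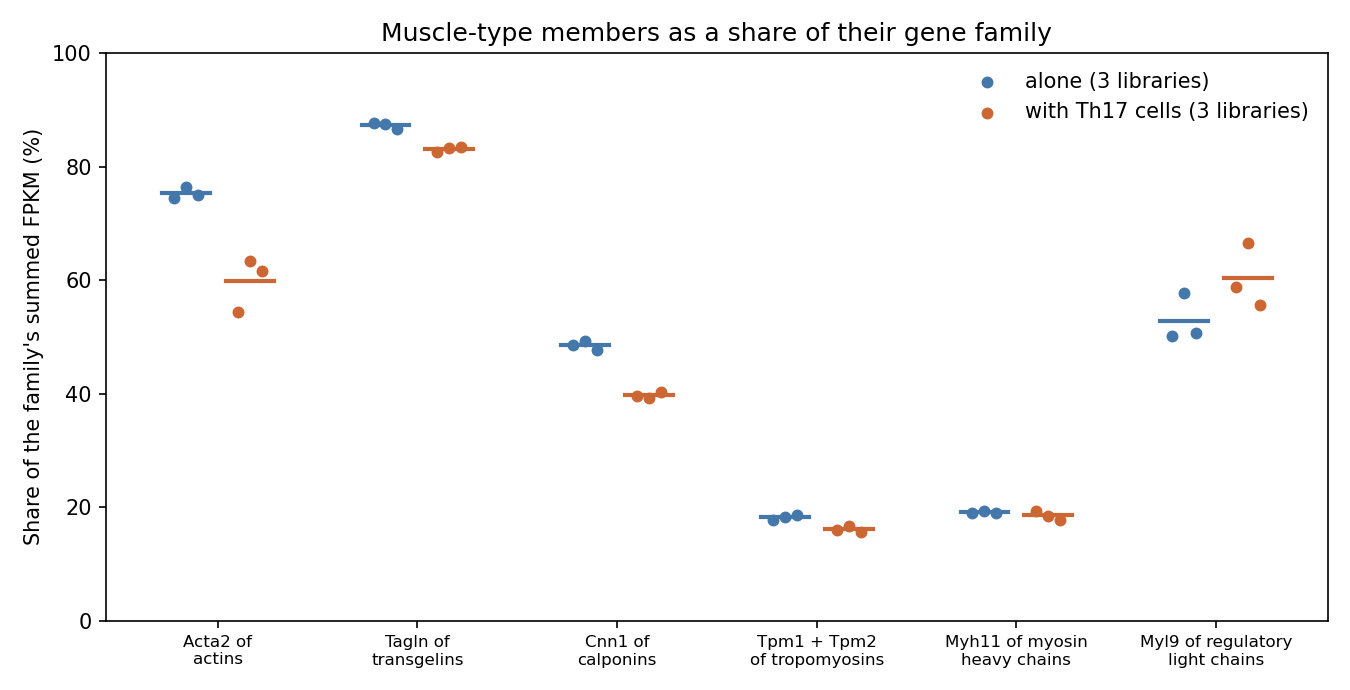
Share (%) of a gene family's summed FPKM that comes from the smooth muscle or muscle-type member named below each column, per library (points) and as group means (bars), for lone (blue) and cocultured (orange) fibroblasts. Acta2, Tagln, Cnn1 and the tropomyosins Tpm1 and Tpm2 lie lower with Th17 cells, without overlap, whereas the points of Myh11 and Myl9 overlap between groups.

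Of the 21 relatives on the list, which covers the other actins, calponins, transgelins, tropomyosins, myosin chains, leiomodins and tropomodulins, 16 had enough counts for the test, which called 8 lower and 0 higher (edgeR, 0 higher also at an unadjusted p below 0.05 and with DESeq2, 1 with limma). Of all genes tested, 20.0% were lower and 17.1% higher. The median log2 fold change was −0.17. At an adjusted p below 0.05 the lower relatives included, besides Myh10, Myl12a and Tagln2, the light chain Myl6 (−0.36, edgeR adjusted p = 0.0151) and skeletal actin Acta1 (−1.16, edgeR adjusted p = 0.0212). Acta1 was scarce, with 41, 27 and 22 counts alone and 12, 18 and 12 counts with Th17 cells, and its call was lost without lone replicate 1 or cocultured replicate 1 or 3, with adjusted p of 0.0893, 0.0707 and 0.0590. That of Myl6 was lost without lone replicate 1 or 2 (0.0525 and 0.0541). Without lone replicate 1 the number of lower relatives was 4, and without lone replicate 2 or cocultured replicate 1 it was 5.

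A list of 25 partners of the contractile bundle, such as kinases, intermediate filaments and proteins of actin anchorage, held called decreases of more than 2-fold in 4 genes. Among all genes tested, 7.78% passed that limit in that direction. The test covered all 25 and called 13 lower and 2 higher, with a median log2 fold change of −0.27, where 20.0% of all genes tested were lower and 17.1% higher. Desmin (Des), the intermediate filament of muscle cells, fell from 1313 ± 42.9 to 312 ± 16.5 CPM (SD over 3 libraries each), and its log2 fold change was −2.07 with an SE of 0.061 (edgeR adjusted p = 4.21e-08). The 3 cocultured libraries held 4214, 4177 and 3880 counts of Des against 16899, 17184 and 15043 in the lone ones, far apart from each other.

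Mylk, the myosin light chain kinase that phosphorylates the product of Myl9, fell from 218 ± 4.43 to 85.3 ± 15.7 CPM (log2 fold change −1.35, edgeR adjusted p = 2.85e-05). Csrp2, a LIM protein of smooth muscle, fell by 1.97 on the log2 scale (edgeR adjusted p = 9.52e-07), and smoothelin (Smtn), found in contractile smooth muscle, by 0.75 (edgeR adjusted p = 0.000148). Synm, a partner of desmin, had 30, 22 and 17 counts alone and 5, 4 and 9 counts with Th17 cells (log2 fold change −1.99, edgeR adjusted p = 0.00367), too few to fix the size of the change. Kcnmb1, a subunit of a smooth muscle potassium channel, was higher, at 0.76 (edgeR adjusted p = 0.00152). The 95% interval of Mylk, −1.63 to −1.08, did not overlap that of Myl9.

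**Figure D4:**
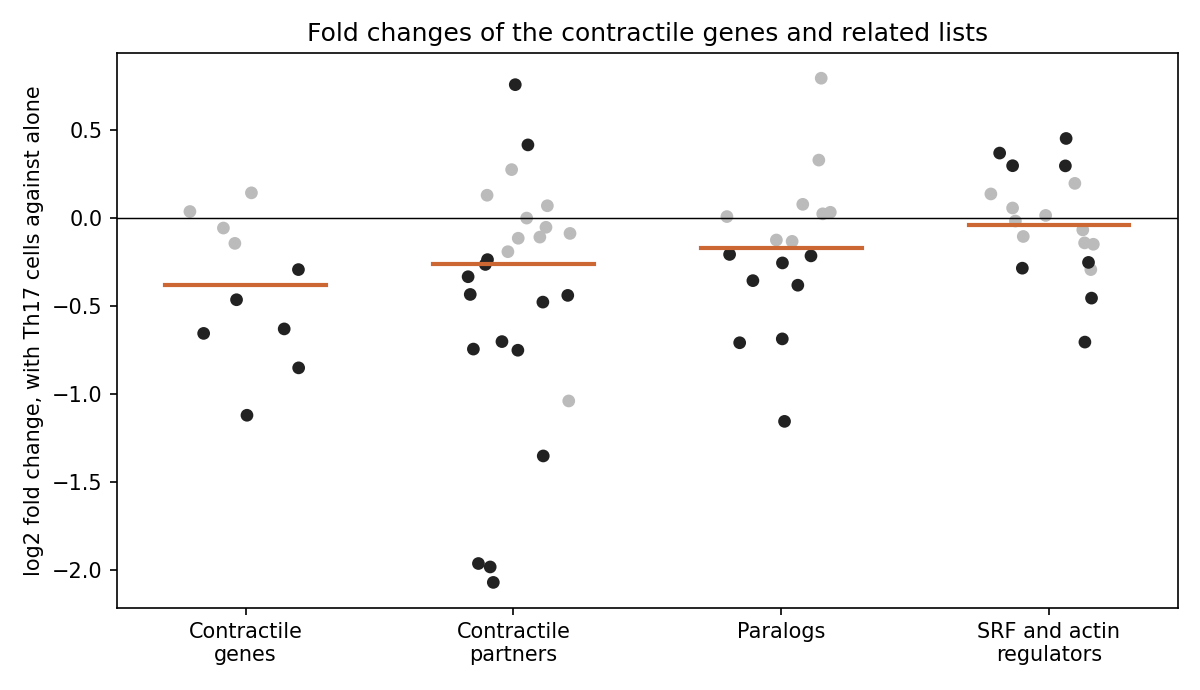
Log2 fold change (with Th17 cells against alone) of each tested gene in the contractile set, its partners, its relatives and the regulators (SRF, its coactivators and actin turnover), black for an adjusted p below 0.05, grey otherwise, with the median of each list as an orange bar. Medians are −0.38, −0.27, −0.17 and −0.04, and Des, Synm and Csrp2 lie near −2 among the partners.

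Of 20 genes for SRF, its coactivators and the turnover of the actin skeleton, 18 were tested, 4 were lower and 4 higher, and the median was −0.04. These counts lie near the background of 20.0% lower and 17.1% higher among all genes tested. Srf itself had 119 ± 1.29 CPM alone and 113 ± 5.73 CPM with Th17 cells and did not pass (log2 fold change −0.07, 95% interval −0.21 to 0.07, edgeR adjusted p = 0.420). Mrtfa, listed as Mkl1 and encoding MRTF-A, was slightly higher, at 0.29 (95% interval 0.10 to 0.49, edgeR adjusted p = 0.0244), a call lost without lone replicate 1 or 2 or cocultured replicate 2 (adjusted p = 0.0694, 0.0880 and 0.0801). Mrtfb, listed as Mkl2, had a log2 fold change of −0.14 (edgeR adjusted p = 0.297). Myocd, the gene of myocardin, was too scarce to test, with 5, 7 and 3 counts alone and 8, 9 and 16 counts after coculture.

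Among the other regulators, the kinase gene Rock2 (0.45, edgeR adjusted p = 0.00100) and Elk3 (0.37, edgeR adjusted p = 0.00240), a partner of SRF at growth genes, were higher, as was Ssh1 (0.29, edgeR adjusted p = 0.0416), which encodes a phosphatase of cofilin. Gata6 (−0.71, edgeR adjusted p = 0.000131), a factor of the quiescent smooth muscle state, was lower, as were Klf4 (−0.46, edgeR adjusted p = 0.00145), which opposes myocardin, Rhoc (−0.29, edgeR adjusted p = 0.0102) and Limk2 (−0.25, edgeR adjusted p = 0.0225). Without lone replicate 2 there were 2 lower and 2 higher regulators, Rhoc (adjusted p = 0.0510), Limk2 (0.0634), Mrtfa and Ssh1 (0.145) being lost, and without cocultured replicate 2 there were 2 higher. Ssh1 also lost its call without lone replicate 3 or any 1 of the cocultured libraries, with adjusted p from 0.0591 to 0.131. The call for Limk2 was also lost without lone replicate 3 or cocultured replicate 1 (0.0751 and 0.0510).

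Because smooth muscle and pericytes make the same proteins, markers of other cells were read beside these results. Fibroblast markers were plain in each library. Their summed level was 36130 to 37960 CPM alone and 16310 to 18140 CPM with Th17 cells. Most of it came from the collagen genes Col1a1, Col1a2 and Col3a1. Their means were 15072, 12462 and 4364 CPM alone and 6228, 4621 and 961 CPM with Th17 cells. Of the 10 markers, 7 were lower and 2, Dcn and Pdpn, higher. Dcn rose from 504 to 1427 CPM, and Postn, which was not called, had 1946 and 1897 CPM. Of 10 mural cell markers 7 were tested, and 6 were lower and 0 higher (edgeR, 0 also at an unadjusted p below 0.05 and with DESeq2, 1 with limma). Both marker counts stand beside 20.0% lower and 17.1% higher among all genes tested. The summed level of the mural markers was 549 to 573 CPM alone and 353 to 462 CPM after coculture, most of it Pdgfrb and Cspg4, which fibroblasts also express. Ndufa4l2 fell from 97.1 to 31.1 CPM (log2 fold change −1.64, edgeR adjusted p = 7.47e-06) and Mcam from 46.9 to 16.4 CPM (−1.52, edgeR adjusted p = 6.23e-06), both by more than Acta2. Notch3, Anpep and Pdgfrb fell less (−0.72, −0.64 and −0.34). Cspg4 did not fall and was not called, at 139 CPM alone and 157 CPM with Th17 cells (0.17, edgeR adjusted p = 0.110). The pericyte marker Rgs5 had 27, 17 and 24 counts alone and 5, 7 and 1 counts with Th17 cells (−2.43, edgeR adjusted p = 0.00421). Kcnj8 and Abcc9 had at most 6 counts in any library and Higd1b had 0, beside a floor of 3 counts, which corresponds to 0.223 to 0.254 CPM. The part of mural cells in the lower contractile transcripts was not tested.

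T cell markers summed to between 5.98 and 8.69 CPM alone and between 4.79 and 5.58 CPM with Th17 cells, and Cd3d, Cd8a, Il17a, Il17f and Ccr6 were at 0 counts in every library. Only Lck and Trac could be tested, and Lck was lower. For this list and those that follow, the background among all genes tested was 20.0% lower and 17.1% higher. Macrophage markers summed to 58.3 to 61.4 CPM alone and 19.9 to 21.2 CPM with Th17 cells, Csf1r, Adgre1, Ptprc, Lyz2 and Cd68 being lower of 6 tested. Epithelial markers summed to 19.2 to 21.1 CPM and 3.58 to 4.56 CPM, with Krt19 and Lrp2 lower of 3 tested and Umod and Slc34a1 at 0. Endothelial markers summed to 121 to 128 CPM alone and 269 to 306 CPM with Th17 cells, most of it Flt1 (log2 fold change 1.31, edgeR adjusted p = 9.75e-07), while Kdr was lower and Emcn and Erg were at 0. The part of these cells in the lower contractile transcripts was not tested.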

How the data were processed

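RNA from 6 fibroblast libraries was sequenced on an Illumina NovaSeq. Reads were filtered by the authors (Seqtk), aligned using HISAT2 2.0.4 and counted as fragments per gene using StringTie 1.3.3b. They deposited raw counts and FPKM values, which are scaled to gene length and library total. The submitters' processing notes name build mm10, and 99.9% of the 34267 gene identifiers found in GENCODE vM21 (GRCm38) overlap their annotated position. Use of strand and the handling of fragments that fit several genes are not given in the sources used here.

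Samples were grouped by title and columns matched by description. Counts were fitted in R 4.3.3 with edgeR 4.0.16 (filterByExpr, minimum count 10, TMM, glmQLFit and glmQLFTest) over 13088 genes, and p-values were adjusted by Benjamini-Hochberg. The SE is the log2 fold change divided by the square root of F, and 95% intervals use the t quantile of the fit. A gene was called at an adjusted p below 0.05. Alternatives were other scalings and filters, DESeq2 1.42.0, limma 3.58.1 on log2(FPKM + 1), a replicate block, the study's fold change limit, and leaving out each library. The tests were checked on simulated counts. The floor of 3 counts covers counting error only, since no molecular identifiers were used.

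The contractile genes and the lists were chosen with earlier results of these data known. Named from each related list were the 5 lowest and 3 highest log2 fold changes among genes with an adjusted p below 0.05, with Srf, Mrtfa, Mrtfb, Myocd and the actins always named. Single marker genes, Ssh1, Tpm4 and overlapping genes were chosen after their values were seen. Of the 20 regulators, 1 was not analysed here, and 1 partner that was called higher is not reported here by name. For 59 symbols on more than 1 row, the row of highest count was taken. The samples were not treated as paired by replicate number in the main fit. Same-numbered libraries had correlations of 0.016, −0.026 and −0.004 between their deviations from the group means. Such values cannot show whether these libraries shared a culture or a mouse, which the sources do not say.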

Additional observations from a re-analysis of the deposited data

How the results depend on the processing

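Each of the 10 fold changes was recomputed under 14 alternatives. Of these 140 values, 128 kept their direction and their side of an adjusted p of 0.05. The calls for Acta2, Tagln, Cnn1, Actg2 and Tpm1 held in all 14, with log2 fold changes from −1.20 to −1.02, −0.93 to −0.79, −0.70 to −0.59, −0.56 to −0.37 and −0.69 to −0.54. Myh11 lost its call under 5, at −0.23 under library size only and −0.24 under limma on log2(FPKM + 1) (adjusted p = 0.0574 and 0.0644), and without each lone library. Myl9 changed sign with library size only (0.003) and ranged from −0.23 to 0.0857 without each library, positive without lone replicate 2 or cocultured replicate 1 or 3. Cald1 ranged from −0.0017 to 0.0902 without each library, and Lmod1 was called without cocultured replicate 3. Actb ranged from −0.24 to 0.2578 and Actg1 from −0.27 to 0.2529 without each library, and Actg1 was −0.0033 with the replicate block. The cause of these changes was not tested.

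Members lower numbered 5 to 6 and members higher 0 to 1 when a library was left out, and 1 member was lower with the fold change limit of 2. The members' median was −0.32 under library size only and also under limma, and −0.41 to −0.34 without each library. Library size only moved the median of all genes from 0.00 to 0.07, in the same direction. Lower relatives numbered 4 to 8 without each library and higher ones 0 to 1, with 1 higher under limma. Regulators numbered 2 to 6 lower and 2 to 3 higher without each library. Partners numbered 11 to 13 lower under all alternatives. The change in the Acta2 share of actin FPKM stayed between −17.3 and −12.8 percentage points without each library, and was −17.6 as a share of CPM. DESeq2 left Acta1 without a call (−1.16, adjusted p = 0.0602), and Limk2 lost its call under library size only and under limma (adjusted p = 0.0588 and 0.0691). With the replicate number as a block, 4513 genes passed against 4856 without it, and the members' calls were unchanged, 6 lower and 0 higher. Depth limits the values of Acta1, Synm and Myocd, at under 50 counts in each library.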
